A study of Homo sapiens with 30 samples.

Results

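The ERK feedback genes are transcripts that ERK signaling turns on and whose products restrain the pathway or report its output. The group holds 10 genes, chosen by name with earlier results of these data known. DUSP4, DUSP5 and DUSP6 are dual specificity phosphatases, SPRY2 and SPRY4 Sprouty genes, and SPRED1 and SPRED2 Spred genes. The others are PHLDA1, IER3 and EPHA2. All 10 were found among the 26249 genes that have 1 entry in the deposited expression table, and all 10 are among the 12666 that reached 1 FPKM in at least 1 line, called tested genes below. FPKM, a fragment count scaled to transcript length and library size, lets levels be set side by side between genes.

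The cells were RWPE1, a non-cancerous prostate epithelial cell line, in 4 retrovirally transduced lines with 3 RNA-seq libraries each. RWPE1-vector cells carried the empty vectors pQCXIH and pBabe-puro, RWPE1-ERG cells carried ERG in pQCXIH with empty pBabe-puro, RWPE1-mAKT cells carried empty pQCXIH with myristoylated, constitutively active AKT (mAKT), and RWPE1-ERG/mAKT cells carried ERG and mAKT. All RWPE1 lines were drug selected and grown in serum-free medium with EGF and bovine pituitary extract, so the receptor upstream of ERK had its ligand in every line. Chromatin data came from 1 library per line: ERK2 ChIP-seq in RWPE1-vector and RWPE1-ERG cells, ChIP-seq for ERG in the RWPE1-ERG/mAKT line and in DMSO-treated VCaP cells, a prostate cancer line that expresses ERG from a gene fusion, ATAC-seq in all RWPE1 lines named above but RWPE1-vector, and H3K27me3 ChIP-seq in RWPE1-vector cells, RWPE1-ERG cells and cells with ERG S96E, the last carrying a phosphomimetic ERG. ERG was driven by a retroviral vector, so its level is that of the transgene and not of a native promoter.

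In the RAS/ERK pathway a growth factor receptor activates RAS, which activates RAF, MEK and then ERK1 and ERK2, and ERK phosphorylates transcription factors, ERG among them. The response limits itself: DUSP phosphatases remove the activating phosphates from ERK, and Sprouty and Spred proteins act at the level of RAS and RAF. Because these genes are transcribed when ERK is active, their mRNA is widely used as a reading of pathway output. ETS factors such as ERG bind DNA at GGAA, often beside sites for AP-1.

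The labels were checked on the transgenes. ERG was at 0.264 FPKM in RWPE1-vector cells and 0.435 in RWPE1-mAKT cells, against 357.6 in RWPE1-ERG cells and 328.0 in RWPE1-ERG/mAKT cells. AKT1 was at 58.7 in RWPE1-vector, 64.2 in RWPE1-ERG, 156 in RWPE1-mAKT and 281 FPKM in RWPE1-ERG/mAKT cells. The expression table gives 1 FPKM per line, pooled by the authors over the 3 libraries, and its columns of test results were not used here, so the expression values below carry no error and no test. A gene is counted as higher or lower when its ratio passes 1.5-fold, and such counts are read only against the share of all 12666 tested genes past the same limit. The defining markers of prostate basal epithelium were present in every line, with KRT5 at 1170 to 3642 FPKM, and so were the luminal keratins KRT8, at 622 to 1769, and KRT18, at 817 to 1843, while the luminal marker KLK3 was listed at 0. Markers of leukocytes, fibroblasts and endothelium were low or absent except CD68, with PTPRC and COL3A1 below 0.01 FPKM in all 4 lines. CD68, listed as a leukocyte marker, was at 24.3 to 28.9 FPKM, above the median of tested genes.

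In RWPE1-ERG/mAKT cells 9 of the 10 feedback genes had their lowest level of the 4 lines, the exception being IER3, which was lowest in RWPE1-vector cells. Among all tested genes, 36.4% were lowest in RWPE1-ERG/mAKT cells and 19.8% in RWPE1-vector cells. For 8 of the 10 genes RWPE1-vector and RWPE1-mAKT cells lay above RWPE1-ERG cells, and RWPE1-ERG/mAKT cells were lowest. Only IER3 and EPHA2 depart from this order. The share of all tested genes with this order was not counted, so the order is given as a description only. The gap was small in places, with RWPE1-mAKT against RWPE1-ERG cells at 5.53 against 5.38 FPKM for SPRY2 and 6.80 against 6.54 for SPRED1. For PHLDA1 the RWPE1-mAKT level, 26.6, lay between those of RWPE1-vector, 31.7, and RWPE1-ERG cells, 23.9.

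**Figure D1:**
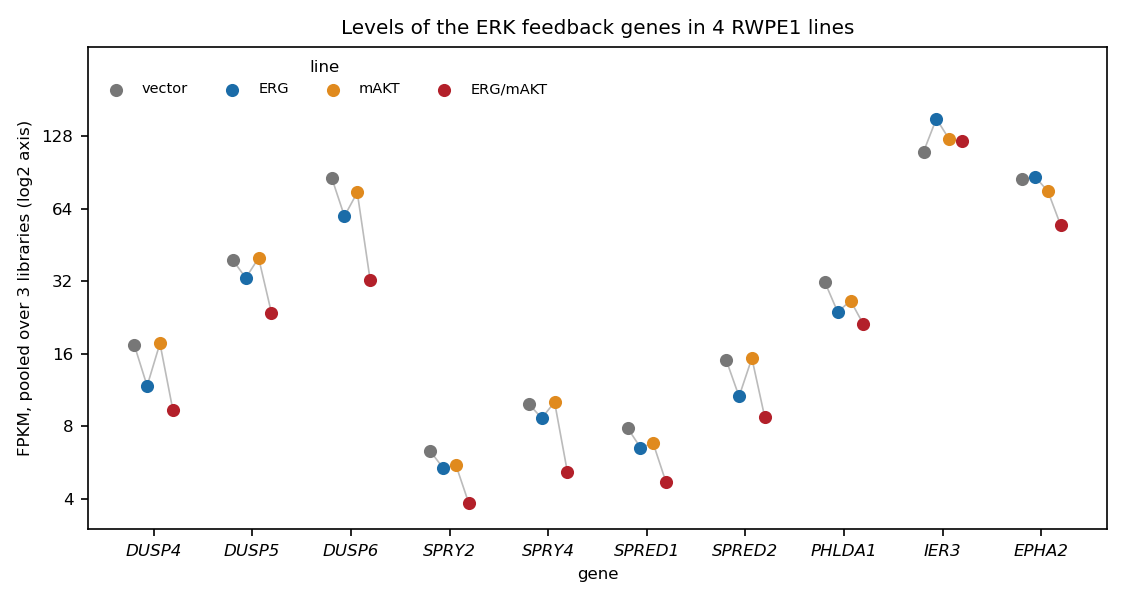
FPKM of each of the 10 ERK feedback genes in the 4 RWPE1 lines on a log2 axis, 1 point per line, each a value pooled over 3 libraries with no error available, joined within a gene. The RWPE1-ERG/mAKT point is the lowest of the 4 for every gene but IER3, and DUSP6 spans the widest range, from 86.2 to 32.5 FPKM.

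The phosphatases come first, since they act on ERK itself. DUSP6, a cytoplasmic phosphatase selective for ERK, was at 86.2 FPKM in RWPE1-vector, 59.6 in RWPE1-ERG, 74.8 in RWPE1-mAKT and 32.5 in RWPE1-ERG/mAKT cells. It was above 91.0% of tested genes in RWPE1-vector cells and above 77.7% in RWPE1-ERG/mAKT cells. DUSP5, which acts on ERK in the nucleus, was at 39.1, 33.0, 40.0 and 23.7 FPKM in the same order of lines. DUSP4, a nuclear phosphatase of ERK and other MAP kinases, was at 17.4, 11.8, 17.7 and 9.40 FPKM. For DUSP4 and DUSP5 the RWPE1-vector and RWPE1-mAKT values nearly coincided, and for all 3 phosphatases the RWPE1-ERG value lay between these and the RWPE1-ERG/mAKT value.

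The Sprouty and Spred genes, whose products act above ERK, were expressed at lower levels. SPRY4 was at 9.90 FPKM in RWPE1-vector, 8.66 in RWPE1-ERG, 10.1 in RWPE1-mAKT and 5.18 in RWPE1-ERG/mAKT cells, and SPRY2 was at 6.31, 5.38, 5.53 and 3.85. SPRED1, which brings the RAS inhibitor neurofibromin to the membrane, was at 7.88, 6.54, 6.80 and 4.69 FPKM. SPRED2, its close relative, was at 15.1, 10.7, 15.3 and 8.75 FPKM. Of these 4 genes, SPRED2 had the largest gap between RWPE1-vector and RWPE1-ERG cells, and SPRY4 the largest gap between RWPE1-ERG and RWPE1-ERG/mAKT cells.

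The other 3 genes have less direct roles. PHLDA1, a pleckstrin homology-like protein transcribed in response to ERK, was at 31.7 FPKM in RWPE1-vector, 23.9 in RWPE1-ERG, 26.6 in RWPE1-mAKT and 21.2 in RWPE1-ERG/mAKT cells. EPHA2, a receptor tyrosine kinase for ephrin-A ligands whose gene is an ERK target, was at 85.0, 86.9, 75.7 and 54.7 FPKM. IER3, an immediate early gene, was at 110.3, 151, 124 and 122 FPKM, the highest level of the group in every line. IER3 and EPHA2 were the only members whose level was not lower in RWPE1-ERG than in RWPE1-vector cells.

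The comparison of RWPE1-ERG with RWPE1-vector cells asks what ERG did by itself. The log2 ratio, taken on FPKM plus a pseudocount of 0.1, was below 0 for 8 of the 10 genes, against 51.3% of tested genes. None passed 1.5-fold, against 5.05% of tested genes lower and 9.27% higher. DUSP4 came nearest at -0.56, followed by DUSP6 at -0.53 and SPRED2 at -0.50, while SPRY4 was at -0.19. IER3 was at 0.45 and EPHA2 at 0.03. The median of the group was -0.25, beside -0.01 over all tested genes.

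With mAKT by itself the genes were nearly level. The log2 ratio of RWPE1-mAKT over RWPE1-vector cells ran from -0.25 for PHLDA1 to 0.17 for IER3, with 5 genes below 0, against 44.8% of tested genes, and 5 above. No member passed 1.5-fold, against 2.94% of tested genes lower and 3.27% higher. DUSP4 and SPRED2 at 0.02 and 0.03, and DUSP5 and SPRY4 at 0.03, lay at the level of RWPE1-vector cells. The group's median was -0.07, and that of all tested genes 0.02. Set against each other, RWPE1-mAKT over RWPE1-ERG cells, 8 of the 10 genes were above 0, against 55.7% of tested genes, from 0.04 for SPRY2, which turned just below 0 when centred, to 0.58 for DUSP4. No member passed 1.5-fold in that comparison, against 5.46% of tested genes higher and 9.39% lower.

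With ERG and mAKT present, 8 of the 10 genes were lower than in RWPE1-vector cells by at least 1.5-fold, against 5.09% of tested genes lower and 7.25% higher. The log2 ratios were -1.40 for DUSP6, -0.92 for SPRY4, -0.88 for DUSP4, -0.78 for SPRED2, -0.74 for SPRED1, -0.72 for DUSP5, -0.70 for SPRY2 and -0.64 for EPHA2. PHLDA1, 1.49-fold lower, lay just outside the limit, and EPHA2, 1.56-fold lower, just inside it. IER3 was at 0.15, so 9 of 10 ratios were below 0, against 60.0% of tested genes. At 2-fold DUSP6 was the only member past the limit, against 1.86% of tested genes. DUSP6 was 2.65-fold lower, and 122 of the 12666 tested genes, DUSP6 included, had a ratio as low. The group's median was -0.73, beside -0.06 over all tested genes. When the ratios were centred on the median of all tested genes, EPHA2 no longer passed and 7 genes remained. In a bulk sample, fewer cells that express a gene and less RNA per cell cannot be told apart.

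**Figure D2:**
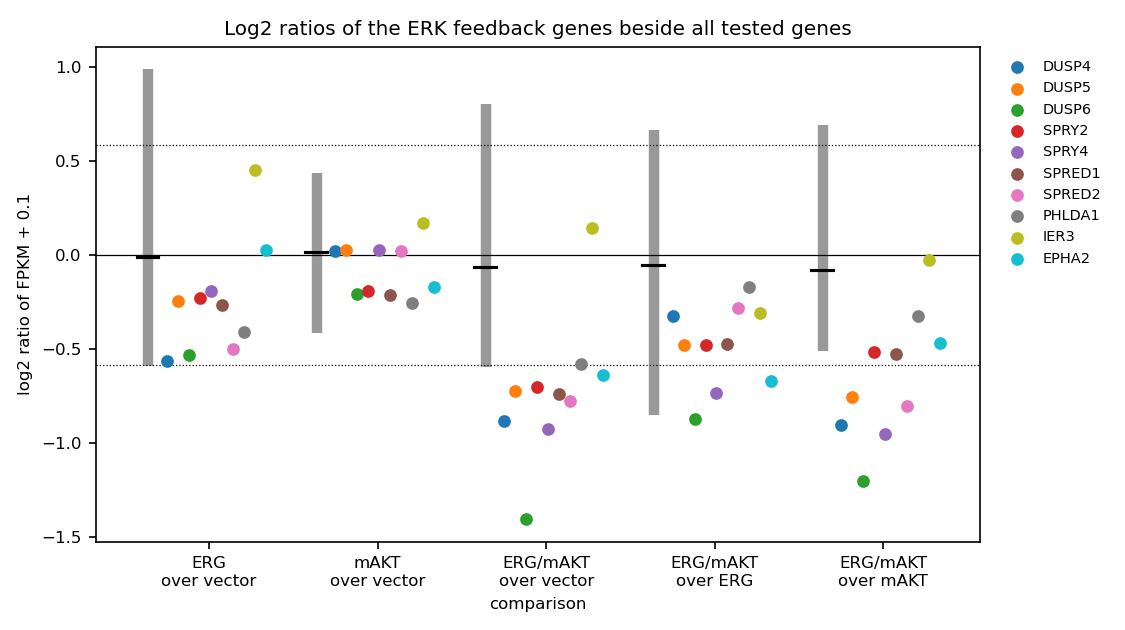
Log2 ratios of FPKM plus 0.1 for the 10 ERK feedback genes (colored points) in 5 comparisons of pooled values. The gray bar spans the middle 90% of the 12666 tested genes with a black tick at their median, and dotted lines mark 1.5-fold. Under ERG/mAKT over vector 8 points lie beneath the lower dotted line, and under mAKT over vector the points run from -0.25 to 0.17.

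The comparison of RWPE1-ERG/mAKT with RWPE1-ERG cells asks what mAKT added where ERG was present. All 10 genes had a ratio below 0, against 56.4% of tested genes. DUSP6 at -0.87, SPRY4 at -0.73 and EPHA2 at -0.67 were lower by 1.5-fold, 3 of 10 members against 9.25% of tested genes, and 0 were higher, against 5.95%. DUSP5, SPRY2 and SPRED1 were at -0.48, -0.47 and -0.47, and PHLDA1 was nearest to 0 at -0.17. The group's median was -0.47, beside -0.05 over all tested genes. RWPE1-ERG/mAKT is the line shared by this comparison and the next, so their ratios are not independent.

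The comparison of RWPE1-ERG/mAKT with RWPE1-mAKT cells asks what differed with ERG where mAKT was present. AKT1 differed between these lines too, at 281 FPKM in RWPE1-ERG/mAKT and 156 in RWPE1-mAKT cells. Its part in the ratios below was not tested. All 10 ratios were below 0, against 63.6% of tested genes, though that of IER3 turned to 0.05 when centred on the median of all tested genes. DUSP6 at -1.20, SPRY4 at -0.95, DUSP4 at -0.90, SPRED2 at -0.80 and DUSP5 at -0.75 were lower by 1.5-fold, 5 of 10 members against 3.58% of tested genes, and 0 were higher, against 6.08%. IER3 was at -0.03, so the higher level of IER3 seen with ERG in cells without mAKT had no counterpart in cells with mAKT. The group's median was -0.64, beside -0.08 over all tested genes.

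The ratio of RWPE1-ERG/mAKT over RWPE1-vector cells was next set against the sum of the ratios of RWPE1-ERG and RWPE1-mAKT cells. For 9 of the 10 genes the combined line was lower than the sum, as were 58.1% of tested genes. The difference passed 1.5-fold for SPRY4, at -0.76, and for DUSP6, at -0.67, 2 of 10 members against 10.8% of tested genes. For SPRY4 the ratios of the single lines summed to -0.16 and the combined line was at -0.92, and for DUSP6 the sum was -0.74 and the combined line at -1.40. PHLDA1 was the exception, with a sum of -0.66 and a combined ratio of -0.58. The group's median difference was -0.41, beside -0.07 over all tested genes. AKT1 was itself higher in the combined line than in RWPE1-mAKT cells, at 281 against 156 FPKM. The differences from the sum, and the part of AKT1 in them, were not tested.

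**Figure D3:**
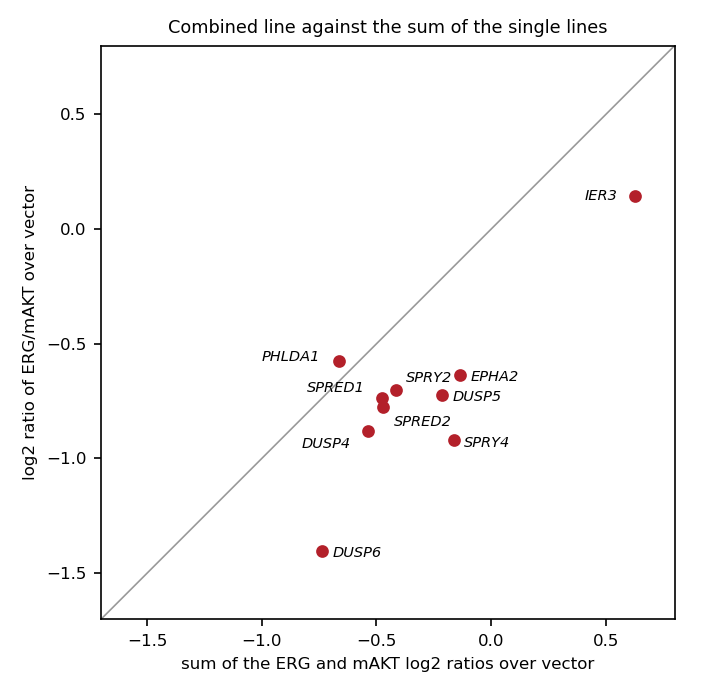
Log2 ratio of ERG/mAKT over vector (vertical axis) against the sum of the ERG and mAKT log2 ratios over vector (horizontal axis), 1 point per ERK feedback gene, on FPKM plus 0.1. On the gray diagonal the combined line equals the sum. All points but PHLDA1 lie under it, SPRY4 by 0.76 and DUSP6 by 0.67.

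Epithelial keratins differed between these lines as well. The 4 basal markers (KRT5, KRT14, TP63 and ITGB4) summed to 6477 FPKM in RWPE1-vector, 2174 in RWPE1-ERG, 6546 in RWPE1-mAKT and 4928 in RWPE1-ERG/mAKT cells, and the 5 luminal markers, mostly KRT8 and KRT18, summed to 1441, 3614, 1659 and 1880. Both sums stood farthest from RWPE1-vector cells in RWPE1-ERG cells. Of the basal markers, KRT14, at -1.31, and ITGB4, at -1.02, were lower by 1.5-fold in RWPE1-ERG/mAKT over RWPE1-vector cells. The other basal markers, KRT5 at 0.17 and TP63 at 0.06, were not lower there. ITGB4, at 379, 283, 339 and 186 FPKM in the same order of lines, was lowest in RWPE1-ERG/mAKT cells, like all feedback genes but IER3. The part of these markers in the levels of the feedback genes was not tested.

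The other regulators of the same kind gave counts near those of all tested genes. Of 15 further phosphatases and feedback inhibitors, 13 were among the tested genes. In RWPE1-ERG/mAKT over RWPE1-vector cells 0 of the 13 were lower by 1.5-fold, against 5.09% of tested genes, and 2 were higher, against 7.25%: DUSP10, a phosphatase that prefers the stress kinases p38 and JNK, at 0.91, and SPRY1 at 0.65. DUSP10 was at 6.97 FPKM in RWPE1-vector, 5.48 in RWPE1-ERG, 6.31 in RWPE1-mAKT and 13.2 in RWPE1-ERG/mAKT cells. SPRY1 was at 2.36, 2.94, 2.76 and 3.76 FPKM, highest in the line where its relatives SPRY2 and SPRY4 were lowest. DUSP7, a cytoplasmic ERK phosphatase close to DUSP6, was lower in RWPE1-ERG than in RWPE1-vector cells, at -0.83, the only gene of this list past the limit there, and stood at -0.33 in RWPE1-ERG/mAKT cells. The list's median was 0.12 in RWPE1-ERG/mAKT over RWPE1-vector cells.

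The genes of the cascade itself stayed inside the limit, as most genes did. Of 16 core genes, from GRB2 and SOS1 through the RAS and RAF genes to the kinases under them, 15 were tested, and 0 passed 1.5-fold in any of the 6 comparisons between lines, against 2.94% to 9.39% of tested genes in each direction. The median of the core was -0.20 in RWPE1-ERG over RWPE1-vector cells and -0.11 in RWPE1-ERG/mAKT over RWPE1-vector cells.

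A further list held 13 transcripts that depend on ERK but do not restrain it, of which 12 were tested. In RWPE1-ERG/mAKT over RWPE1-vector cells 4 were lower by 1.5-fold, against 5.09% of tested genes, and 0 were higher, against 7.25%. ETV5 was at 13.6 FPKM in RWPE1-vector, 12.5 in RWPE1-ERG, 12.3 in RWPE1-mAKT and 4.42 in RWPE1-ERG/mAKT cells, a log2 ratio of -1.60 over RWPE1-vector cells. Its relative ETV4, like ETV5 an ETS factor that ERK induces, was at 23.6, 24.3, 22.6 and 12.0 FPKM, a ratio of -0.97. The AP-1 subunit FOSL1 was at -0.61. ETV1 was at -1.14, on low levels near the limit of 1 FPKM. It was at 1.44 FPKM in RWPE1-vector, 0.789 in RWPE1-ERG, 1.27 in RWPE1-mAKT and 0.600 in RWPE1-ERG/mAKT cells. For ETV4 and ETV5 the single lines were close to RWPE1-vector cells, and the combined line alone stood apart.

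In RWPE1-ERG over RWPE1-vector cells 3 genes of this list were higher, against 9.27% of tested genes, and 1 was lower, against 5.05%. HBEGF, a ligand of the EGF receptor, was at 0.78, FOSL1 at 0.75 and EGR1 at 0.63, and the weakly expressed ETV1 was at -0.79. FOSL1 was at 118.9 FPKM in RWPE1-vector, 200.3 in RWPE1-ERG, 100.4 in RWPE1-mAKT and 78.1 in RWPE1-ERG/mAKT cells. In RWPE1-ERG/mAKT over RWPE1-ERG cells 5 of the 12 were lower, against 9.25% of tested genes, ETV5 at -1.47, FOSL1 at -1.36, ETV4 at -1.01, EGR1 at -0.68 and HBEGF at -0.67. In RWPE1-mAKT over RWPE1-vector cells EGR1, at 0.63, was the only gene of the list past the limit, against 3.27% of tested genes higher. In RWPE1-ERG/mAKT over RWPE1-mAKT cells 4 were lower, against 3.58% of tested genes, ETV5 at -1.45, ETV1 at -0.97, ETV4 at -0.91 and EGR1 at -0.68.

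Among the ligands of EPHA2, 2 were higher where the receptor was lower. Of 5 ephrin-A genes 4 were tested, and in RWPE1-ERG/mAKT over RWPE1-vector cells EFNA1, at 1.13, and EFNA3, at 0.75, were higher by 1.5-fold, against 7.25% of tested genes. EFNA1 was at 12.1 FPKM in RWPE1-vector, 19.4 in RWPE1-ERG, 13.9 in RWPE1-mAKT and 26.6 in RWPE1-ERG/mAKT cells. EPHA2 was at its lowest where EFNA1 was at its highest. In RWPE1-ERG cells, however, EFNA1 was also higher than in RWPE1-vector cells, at 0.67, while EPHA2 was at its highest, 86.9 FPKM. EFNA4, at 0.24, and EFNA5, at -0.15, stayed inside the limit in RWPE1-ERG/mAKT over RWPE1-vector cells.

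**Figure D4:**
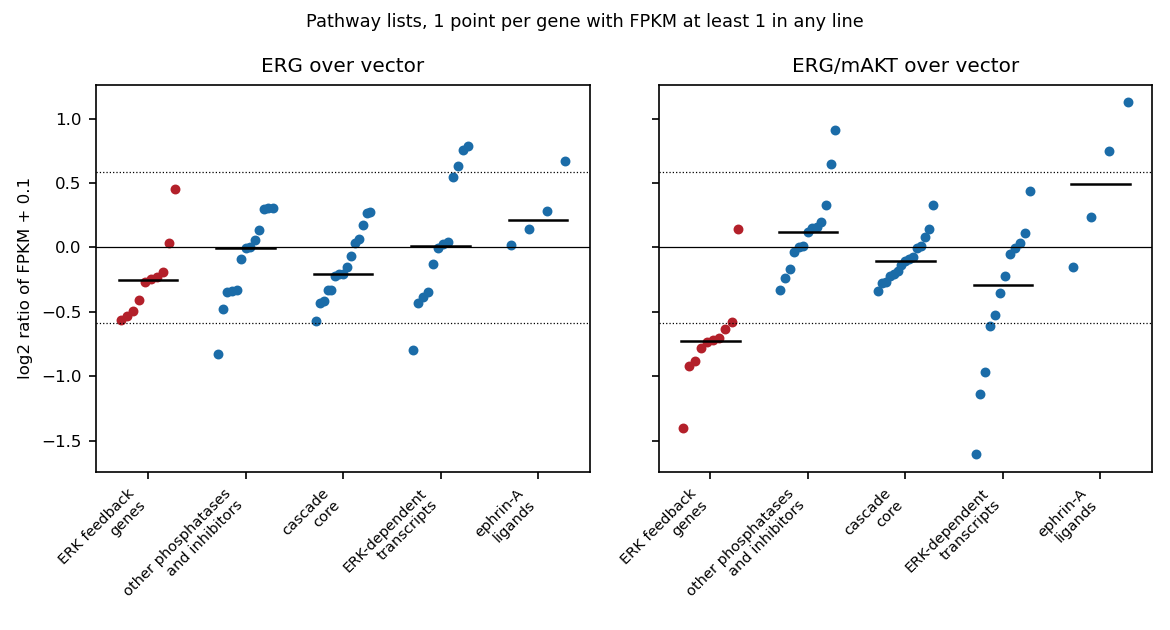
Log2 ratios of FPKM plus 0.1 for the 10 ERK feedback genes (red) and the tested genes of 4 fixed lists (blue), 1 point per gene, with a black bar at each list's median and dotted lines at 1.5-fold, in ERG over vector (left) and ERG/mAKT over vector (right). In the right panel 8 red points and 4 of the 12 ERK-dependent transcripts lie under the lower dotted line, and 0 of the 15 cascade genes do.

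Peaks within 20 kb of each gene were counted next, on GENCODE gene spans in GRCh37. Each list comes from 1 library, was called against its own background and cannot be scaled to another, so lists are read one at a time, each against the share of 11568 tested genes with a span that have a peak within the same distance. Gene length bears on these shares: SPRED2 (chr2:65537985-65659771, minus strand) and SPRED1 (chr15:38545037-38649450, plus strand) are longer than 86.3% and 83.3% of these genes, and IER3 (chr6:30710976-30712325, minus strand) is longer than 3.89%.

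Peaks of ERG in RWPE1-ERG/mAKT cells lay at 3 of the 10 genes, DUSP6, SPRED2 and EPHA2, against 31.9% of all genes with a span. These 3 genes held 9 of the list's 9113 peaks, 2 at DUSP6, 1 at SPRED2 and 6 at EPHA2. DUSP6 (chr12:89741012-89746278, minus strand) had a peak from 178 bp upstream of its start, chr12:89746456-89746666, with a fold enrichment of 4.24 over input and a -log10 q-value of 0.686. This peak lies in an exon of an unnamed long noncoding RNA. A stronger DUSP6 peak lay 18308 bp upstream, chr12:89764586-89765007, in an intron of another unnamed long noncoding RNA, with a fold enrichment of 5.87 and a -log10 q-value of 2.99. The SPRED2 peak, chr2:65604915-65605194, lay 54577 bp into the gene, in an intron that also holds an exon of an unnamed long noncoding RNA, and had a fold enrichment of 4.24.

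EPHA2 (chr1:16450832-16482564, minus strand) carried the strongest ERG peak of the group. The peak at chr1:16471835-16472472, 10092 bp into the gene in an intron, had a fold enrichment of 7.05, higher than 98.9% of the list, and a -log10 q-value of 5.13. Beside it lay chr1:16470498-16470709, with a fold enrichment of 5.65 and a -log10 q-value of 2.51, and the weaker chr1:16471453-16471561, at 3.53. A pair further into the gene, chr1:16465420-16465635 and chr1:16466152-16466260, had fold enrichments of 4.94 and 4.24, and 1 intergenic peak, chr1:16500111-16500263, lay 17547 bp upstream at 3.52. Of the 9 ERG peaks, 3 had a q-value of 0.01 or below, 1 at DUSP6 and 2 at EPHA2, and 4.94% of the whole list did.

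The sequences under 5 of these peaks are shown because they lie at DUSP6, SPRED2 and EPHA2, each lower by 1.5-fold in the line where ERG was mapped. All peaks of DUSP6 and SPRED2 are shown, and of the 6 at EPHA2 the 2 that hold one of the longer sequences named next, which the other 4, the strongest among them, lack. Each is the 201 bases centered on the summit, read from the plus strand of GRCh37, 5′ to 3′, in lower case, with capitals for 3 short sequences searched on both strands. These are GGAA, the ETS core, which reads TTCC on the opposite strand, the longer ETS sequence GGAAGTG, which contains that core, and TGACTCA, the AP-1 site. The windows are, in the order shown, chr12:89746401-89746601 and chr12:89764868-89765068 at DUSP6, chr2:65604898-65605098 at SPRED2, and chr1:16465503-16465703 and chr1:16500078-16500278 at EPHA2.
DUSP6 start-proximal: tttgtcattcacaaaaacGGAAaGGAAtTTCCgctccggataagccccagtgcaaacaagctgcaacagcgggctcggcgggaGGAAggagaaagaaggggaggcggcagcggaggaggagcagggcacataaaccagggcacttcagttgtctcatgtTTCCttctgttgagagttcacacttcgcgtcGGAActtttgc
DUSP6 distal: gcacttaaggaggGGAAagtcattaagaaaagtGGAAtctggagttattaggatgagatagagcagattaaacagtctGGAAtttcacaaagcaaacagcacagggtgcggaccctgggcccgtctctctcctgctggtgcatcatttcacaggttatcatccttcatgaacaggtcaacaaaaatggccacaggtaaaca
SPRED2 intronic: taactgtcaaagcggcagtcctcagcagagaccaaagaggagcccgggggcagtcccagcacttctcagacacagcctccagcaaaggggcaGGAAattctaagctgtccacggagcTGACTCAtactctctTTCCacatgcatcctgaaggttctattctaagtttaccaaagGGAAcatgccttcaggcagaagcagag
EPHA2 intronic: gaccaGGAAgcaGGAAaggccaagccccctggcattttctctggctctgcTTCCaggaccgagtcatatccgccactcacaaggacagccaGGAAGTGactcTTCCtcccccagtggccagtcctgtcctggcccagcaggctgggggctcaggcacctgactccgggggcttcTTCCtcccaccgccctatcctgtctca
EPHA2 distal: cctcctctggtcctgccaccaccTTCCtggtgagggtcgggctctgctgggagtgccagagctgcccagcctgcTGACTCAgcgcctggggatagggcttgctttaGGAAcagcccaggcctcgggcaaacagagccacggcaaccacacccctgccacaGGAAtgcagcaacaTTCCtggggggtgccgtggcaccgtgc

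All 9 ERG peaks at the group had GGAA within 100 bp of the summit, as did 87.5% of all 9113 peaks, a share that says little since GGAA is short. GGAAGTG was found in 1 of the 9, the intronic window of EPHA2, against 5.78% of the list. TGACTCA was found in 2 of the 9, the SPRED2 intronic and the EPHA2 distal windows, against 8.45% of the list. The DUSP6 start-proximal window held 6 matches to GGAA, among them a GGAA next to a TTCC, and the DUSP6 distal window held 3. The promoters of 7 members, 300 bases in the RefSeq table on GRCh38.p14, held GGAA in all 7, against 95.5% of 27305 promoters, and GGAAGTG and TGACTCA in 0, against 11.5% and 4.92%. DUSP4, DUSP5 and IER3 were not analysed here in this respect.

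Of the 9 ERG peaks, 7 overlapped an ATAC peak of RWPE1-ERG/mAKT cells, against 18.5% of the list. The 2 that did not were the pair further into EPHA2. At the distal DUSP6 peak an ATAC peak was present in all 3 lines, with fold enrichments of 9.04 in RWPE1-ERG, 7.33 in RWPE1-mAKT and 8.63 in RWPE1-ERG/mAKT cells, each on its own library's scale. The site was therefore called open in RWPE1-mAKT cells, where ERG was at 0.435 FPKM. The strongest EPHA2 peak also overlapped an ATAC peak in each of the 3 lines.

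In VCaP cells ERG peaks were found at 3 of the 10 genes, DUSP5, DUSP6 and SPRED2, against 23.6% of genes with a span. DUSP6 held 4 of the 6 peaks. One covered its start, chr12:89746116-89746471, with a fold enrichment of 4.03, and shared only its edge with the start-proximal ERG peak of RWPE1-ERG/mAKT cells. Another, chr12:89746676-89746854, lay 398 bp upstream at 4.93, and the remaining 2 lay beyond the 3′ end of the gene, at 4.36 and 2.98. All 6 VCaP peaks had GGAA near the summit, against 87.6% of the list, 1 had GGAAGTG, at SPRED2, against 7.08%, and 0 had TGACTCA, against 2.94%. The SPRED2 peak of VCaP cells, chr2:65633875-65634048, also had a fold enrichment of 4.93, but stood 25723 bp into the gene, away from that of RWPE1-ERG/mAKT cells. The DUSP5 peak, chr10:112263657-112263820, lay in an intron at 3.59. No peak was listed in VCaP cells within 20 kb of EPHA2, the gene with the most ERG peaks in RWPE1-ERG/mAKT cells. Of the 9 peaks called in RWPE1-ERG/mAKT cells, 1 overlapped a VCaP peak, against 1.25% of the list.

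**Figure D5:**
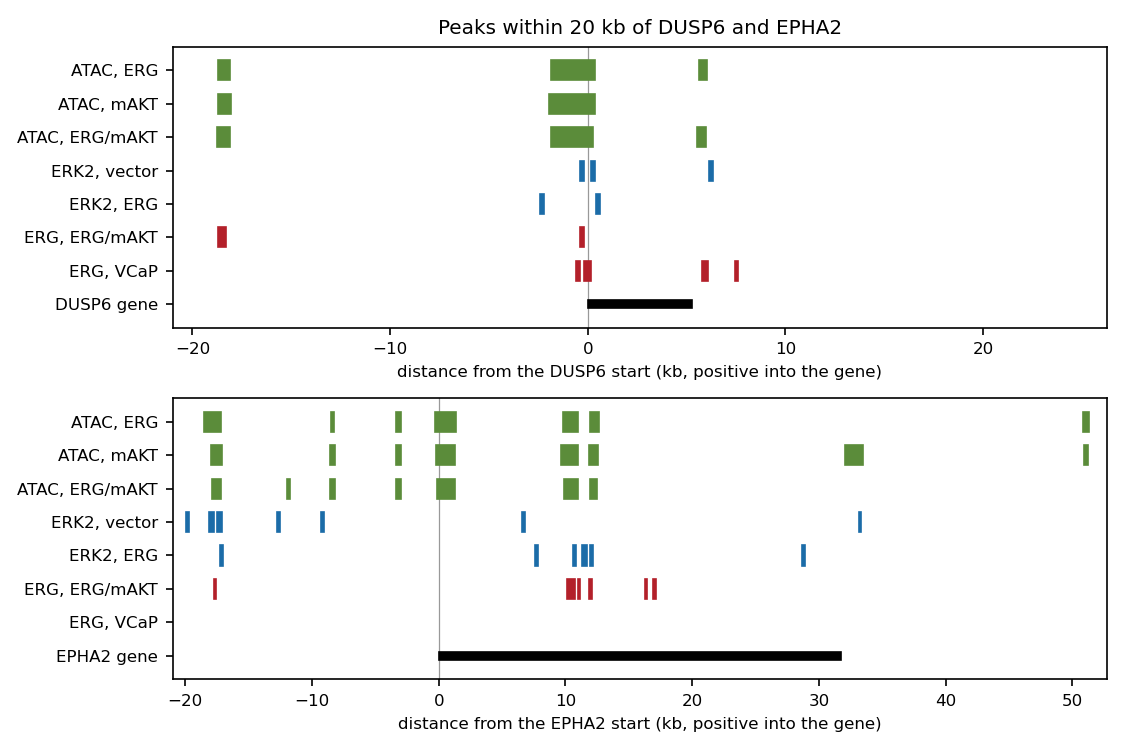
Peaks within 20 kb of DUSP6 (top) and EPHA2 (bottom), placed by distance from the gene start in kb, positive into the gene, with 1 row per list: ATAC-seq (green), ERK2 (blue), ERG (red) and the gene itself (black). Peaks are drawn to scale with a thin outline that keeps the narrowest visible, and height carries no value. ERG peaks sit at the DUSP6 start in both cell types and in a cluster 10 to 12 kb into EPHA2 in ERG/mAKT cells only, where 3 ERK2 peaks of ERG cells lie as well.

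ERK2 peaks of RWPE1-ERG cells were found at 6 of the 10 genes, DUSP5, DUSP6, SPRY4, PHLDA1, IER3 and EPHA2, against 32.3% of genes with a span. EPHA2 held 6 of the 13 peaks, DUSP6 and IER3 2 each, and the other 3 genes 1 each. The strongest was chr1:16470854-16471254 in an EPHA2 intron, with a fold enrichment of 4.86 and a -log10 q-value of 1.52. Next came SPRY4 (chr5:141689992-141706020, minus strand), with a peak at chr5:141703588-141703945, 2075 bp into the gene over an untranslated exon, at 4.80 and a -log10 q-value of 1.52. At DUSP6 the peaks lay 422 bp into the gene, over coding sequence, at 2.89, and 2208 bp upstream at 3.70. The PHLDA1 peak, chr12:76425985-76426620, lay 429 bp upstream of its start at 3.31, and the DUSP5 peak, chr10:112260538-112260864, lay in an intron at 2.93. IER3 had 1 peak over its untranslated sequence at 2.54 and 1 over coding sequence of its neighbor TUBB at 3.31. None of the 13 had a q-value of 0.01 or below, and 3.11% of the 5721 peaks in the list did. The EPHA2 and SPRY4 peaks named first had a higher fold enrichment than 94.5% and 94.3% of the list.

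EPHA2 was the only member where an ERK2 peak of RWPE1-ERG cells overlapped an ERG peak of RWPE1-ERG/mAKT cells. This happened at 2 of its 6 ERK2 peaks, chr1:16470369-16470610 and chr1:16471756-16471984, with ERK2 fold enrichments of 3.31 and 3.70. Over the whole ERK2 list 4.56% of peaks overlapped one of these ERG peaks. The 2 factors were measured in different lines, one without mAKT and one with it. GGAA was within 100 bp of the summit in all 13 ERK2 peaks, against 88.4% of the list, GGAAGTG in 1, at DUSP5, against 5.21%, and TGACTCA in 0, against 7.74%. Of the 13 peaks, 3 overlapped an ATAC peak of the same line, all at EPHA2, against 41.1% of the list.

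In RWPE1-vector cells all 10 genes had an ERK2 peak, but so did 76.7% of genes with a span, since that list holds 41276 peaks against 5721 in RWPE1-ERG cells. Of the 28 peaks at the group, 8 were at IER3 and 7 at EPHA2, and 1 had a q-value of 0.01 or below. This was chr1:16499708-16500084, intergenic and 17144 bp upstream of EPHA2, with a fold enrichment of 5.47, higher than 99.5% of the list, and a -log10 q-value of 2.67. It was also the only one of the 28 that overlapped an ERK2 peak of RWPE1-ERG cells, and it overlapped an ATAC peak in each of the 3 ATAC lists. When the 5721 peaks of lowest p-value were taken from the RWPE1-vector list, 3 genes kept a peak, SPRY4, IER3 and EPHA2, against 27.9% of genes with a span. DUSP6 had a peak of RWPE1-vector cells, chr12:89746454-89746654, 176 bp upstream of its start at 3.08, over the start-proximal ERG peak of RWPE1-ERG/mAKT cells. The VCaP ERG peak over the start, chr12:89746116-89746471, shared only its edge with it. Another DUSP6 peak of RWPE1-vector cells lay over untranslated sequence at 3.69. The other members had between 1 and 3, with fold enrichments from 2.41 at DUSP5 to 4.22 in an intron of SPRY4, and the 8 at IER3, from 3.08 to 4.34, lay in and around its neighbors TUBB, FLOT1 and HCG20. GGAA was within 100 bp of the summit in 24 of the 28, against 84.8% of the list, GGAAGTG in 0, against 3.29%, and TGACTCA in 2, both at EPHA2, against 3.83%.

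Open chromatin was listed near every member in each ATAC library, as it was near 99.2% of genes with a span in RWPE1-ERG and RWPE1-mAKT cells and 98.5% in RWPE1-ERG/mAKT cells. A peak covered the gene start of 9 of the 10 genes in RWPE1-ERG cells, against 73.7% of genes, and of 8 in RWPE1-mAKT and in RWPE1-ERG/mAKT cells, against 72.6% and 68.2%. SPRY4 had none over its start in any of the 3 lists, and SPRED1 had one in RWPE1-ERG cells only. That peak, chr15:38543423-38545051, reached the SPRED1 start at 38545037 only with its edge. In all 3 lists an ATAC peak overlapped the ERK2 peak of RWPE1-vector cells 1742 bp into SPRED1. PHLDA1 had the highest start enrichment of the group in each list, 7.12 in RWPE1-ERG, 6.34 in RWPE1-mAKT and 6.78 in RWPE1-ERG/mAKT cells, and IER3 the lowest, 2.68, 2.59 and 2.46, although IER3 had the highest mRNA level. At DUSP6 the start peak was at 4.59, 4.14 and 4.25 in the same order. DUSP6 had the lowest mRNA ratio of the group in RWPE1-ERG/mAKT over RWPE1-vector cells. A peak over its start was called in RWPE1-ERG/mAKT cells, as for 68.2% of genes, and a relation of the 2 was not tested. An ATAC list of RWPE1-vector cells was not used here.

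H3K27me3, a repressive histone mark, covered little of any member's neighborhood. The RWPE1-vector list is the longest, with 492265 regions against 228233 in RWPE1-ERG and 252784 in RWPE1-ERG S96E cells. In RWPE1-vector cells 9 of the 10 genes had a region within 20 kb, against 95.9% of genes with a span, in RWPE1-ERG cells 3 of 10 against 60.2%, and in RWPE1-ERG S96E cells 5 of 10 against 67.1%. SPRED1 had the most, with regions over 7.21% of the gene and its 20 kb flanks in RWPE1-vector cells, 3.69% in RWPE1-ERG cells and 5.86% in RWPE1-ERG S96E cells. DUSP5, DUSP6, SPRY4 and PHLDA1 had regions in RWPE1-vector cells only, over 2.35%, 3.24%, 5.17% and 1.30%, and IER3 had none in any list. EPHA2 had regions over 1.89% in RWPE1-vector, 0.428% in RWPE1-ERG and 3.64% in RWPE1-ERG S96E cells. Of the 8 genes with a ratio below 0 in RWPE1-ERG over RWPE1-vector cells, 0 of them past 1.5-fold, SPRED1 and SPRED2 had a region in RWPE1-ERG cells. The other 6 had none there, where 60.2% of genes with a span had one. A relation of the mark to the levels was not tested.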

How the data were processed

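RNA-seq, ChIP-seq and ATAC-seq were done on RWPE1 lines and ERG ChIP-seq on VCaP cells. The authors aligned RNA-seq reads with TopHat2 and deposited Cuffdiff FPKM, pooled over 3 libraries per line, so the table holds 0 columns of single samples and gives no depth. Its columns of fold changes and p-values were not used. ChIP and ATAC reads were aligned to hg19 (GRCh37) with Bowtie2 and duplicates were removed with Picard. The authors deposited MACS2 peaks (versions 2.1.2 and 2.2.7.1 in the headers) with the pileup signal, the fold enrichment ratio and -log10 p-values and q-values. Headers of the ERK2 lists record a p-value limit of 0.01. ChIP depth in the headers ran from 8393459 to 26454542 tags, 35688481 fragments were recorded for ATAC-seq of RWPE1-mAKT cells, and no depth was given for ERG in VCaP or the other 2 ATAC lists. Each list is 1 library, so its counts carry no error, and 2 lists whose names go against their labels were not used.

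Ratios were log2 of FPKM plus 0.1 over genes with FPKM of at least 1 in any line, and 4 genes with 2 entries were left out. Median FPKM of the tested genes was 10.3 to 10.6 in the 4 lines. Gene spans from GENCODE (GRCh37) were found for 91.3% of tested genes, and peaks count from 1 shared base with the span and 20 kb on either side. Python 3.11.15, pandas 2.3.3, numpy 2.4.6 and pysam 0.24.0 were used, and the counting steps were tested on simulated data. The members and gene lists were chosen with earlier results of these data known. All 10 members are named, and from each list at most 5 genes past 1.5-fold per comparison, while cell type markers, ERG and AKT1 serve as background. Some members of these lists and some peak sequences are not reported here. Alternatives were other pseudocounts and fold limits, centring on the median gene, stricter peak limits, other distances and a narrower sequence window.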

Additional observations from a re-analysis of the deposited data

Results flagged for a closer look

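SPRY4 was flagged because its log2 ratio with mAKT had opposite signs with and without ERG, apart by at least 1.5-fold. The ratio was 0.03, close to no change, for RWPE1-mAKT over RWPE1-vector cells. For RWPE1-ERG/mAKT over RWPE1-ERG cells it was -0.73, a difference of -0.76. Of tested genes 6.48% had a difference as low, and DUSP6 had one of -0.67 without a change of sign. The level of AKT1 also differed between the lines with mAKT, at 156 FPKM in RWPE1-mAKT and 281 in RWPE1-ERG/mAKT cells. The values are pooled over libraries and the difference was not tested.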

How the results depend on the processing

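No paired analysis was possible because the expression values are pooled over the libraries of a line and each peak list is 1 library, and for the same reason no replicate could be left out. No ratio past 1.5-fold changed direction under an alternative, but centring on the median gene turned 2 ratios near 0, IER3 in RWPE1-ERG/mAKT over RWPE1-mAKT cells from -0.03 to 0.05 and SPRY2 in RWPE1-mAKT over RWPE1-ERG cells from 0.04 to -0.0054. Of the counts that answer a comparison 94 stayed within 1.5 times their value and 17, given here, did not. At 2-fold in place of 1.5-fold, the members lower in RWPE1-ERG/mAKT cells numbered 1 against RWPE1-vector (1.86% of tested genes), 0 against RWPE1-ERG (3.66%) and 1 against RWPE1-mAKT cells (1.35%). With no pseudocount 1 member, DUSP4, was higher in RWPE1-mAKT than in RWPE1-ERG cells. Centring left 7 members lower in RWPE1-ERG/mAKT than in RWPE1-vector cells. Members with an ERK2 peak of RWPE1-vector cells numbered 1 at a q-value of at most 0.01 (2.53% of genes), 6 within 5 kb (63.2%) and 3 with list lengths made equal, and those with one of RWPE1-ERG cells numbered 0 at that q-value (1.8%). Within 100 kb, 8 members had an ERG peak in RWPE1-ERG/mAKT cells, against 62.6% of genes, and 5 in VCaP cells, against 45.3%. H3K27me3 regions of RWPE1-ERG cells were at 1 member at a fold enrichment of at least 2 (41.9% of genes) and at 1 within 5 kb (33.6%). Those of RWPE1-ERG S96E cells were at 3 (56.5%), at 2 (38.0%) and, within 20 kb of the gene start, an alternative chosen after seeing the data, at 2 (49.2%). Within 50 bp of the summit, TGACTCA was in 1 ERK2 peak of RWPE1-vector cells (1.88% of the list) and GGAAGTG in 0 of RWPE1-ERG cells (2.69%). Lists with weak peaks and unequal length limit every count of members with a peak.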
